A study of Homo sapiens with 12 samples.

Results

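The genes described here are 2 neurotrophins, BDNF and NTF3, and 5 receptors for neurotrophins or their precursors, NTRK2, NTRK3, NGFR, SORT1 and SORCS2. They are 7 of the 59653 gene symbols in the deposited table, found by symbol, and all 7 passed the filter on low counts. They were chosen with the difference between siZCC and siNC in these data already known, so their differences between the groups are given as a description, without a test. The libraries came from neurons made from induced pluripotent stem cells of IMR-90, an established human lung fibroblast line. In siNC the cells received a negative control siRNA and in siZCC an siRNA against ZCCHC17, a zinc-knuckle RNA-binding protein, with 6 libraries in each group. No dose, time after treatment or age of the cultures is given in the sources used here, all cells descend from 1 line, and the sample titles carry the letters NPC without saying what they stand for. The labels do not say that the 6 libraries of a group came from separate cultures, so p-values measure only the spread between these libraries, which may be technical.

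Neurotrophins are secreted growth factors that are made as longer precursors and cut to the mature form. Mature BDNF binds TrkB, the receptor tyrosine kinase encoded by NTRK2, and NT-3, the product of NTF3, binds mainly TrkC, encoded by NTRK3. All mature neurotrophins also bind p75NTR, the death-domain receptor encoded by NGFR, which pairs with sortilin (SORT1) or SorCS2 (SORCS2) to form receptors for the uncut precursors. TrkB exists as a full-length kinase, the main form in neurons, and as a truncated form without the kinase domain, the main form in astrocytes. Counts per gene do not separate these forms.

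Promoter sequence was looked up for the 7 genes in RefSeq (GRCh38.p14). There were 14 start sites with a window in the table, belonging to 5 of the 7 genes, and the 250 bases before each start were searched on both strands for 4 motifs. The core of the cAMP response element was searched as TGACG. Its full palindrome, which contains that core, was searched as TGACGTCA. The E-box was spelled CACGTG, a form bound by several basic helix-loop-helix factors. The GC box of the Sp1 family was spelled GGGCGG. The windows with the core element or the E-box are shown because BDNF and the gene of its receptor NTRK2 differed between the groups in opposite directions. Capitals mark these matches, where CGTCA is the core element read on the opposite strand.
BDNF, chr11:27720780-27721029, minus strand: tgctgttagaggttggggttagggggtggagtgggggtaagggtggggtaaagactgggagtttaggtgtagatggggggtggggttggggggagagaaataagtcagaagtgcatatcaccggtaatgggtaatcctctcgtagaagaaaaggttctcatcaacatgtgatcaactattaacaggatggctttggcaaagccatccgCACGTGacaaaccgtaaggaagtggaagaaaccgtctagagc
BDNF, chr11:27701622-27701871, minus strand: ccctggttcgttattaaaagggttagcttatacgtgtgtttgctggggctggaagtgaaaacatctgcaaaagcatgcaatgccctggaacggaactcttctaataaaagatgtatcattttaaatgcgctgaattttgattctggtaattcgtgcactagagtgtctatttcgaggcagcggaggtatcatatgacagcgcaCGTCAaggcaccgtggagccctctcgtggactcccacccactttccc
NTRK2, chr9:84670099-84670348, plus strand: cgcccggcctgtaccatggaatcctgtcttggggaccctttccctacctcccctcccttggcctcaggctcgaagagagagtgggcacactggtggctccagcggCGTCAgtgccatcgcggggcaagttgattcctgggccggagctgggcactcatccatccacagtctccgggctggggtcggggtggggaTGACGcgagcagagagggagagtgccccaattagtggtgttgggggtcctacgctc

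The TGACG match of the second BDNF window begins 47 bases before the start site, and those of the NTRK2 window begin 145 and 56 bases before it. Of the 14 windows, 2 held TGACG, against 21.2% of the 35116 windows of all genes. The full TGACGTCA was in 0 of the 14 and in 1.65% of all windows. CACGTG was in 1 window, against 6.34% of all, and GGGCGG in 8, against 42.6%. These are matches of letters, not shown binding sites, and counts per gene do not say which start site was used.

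Each library held 76115083 to 120023356 counts, and the totals were lower in siZCC (mean 89267357 ± 10189473, SD, n = 6) than in siNC (111754863 ± 10826516). ZCCHC17 stood at 53.99 to 61.0 CPM (counts divided by the TMM-scaled library size and set to a common total of 1000000) in siNC and at 9.37 to 10.6 CPM in siZCC. Markers of neurons were present, with MAP2 the highest at 1030 CPM over all libraries, but so were those of neural progenitors, led by VIM at 3571 CPM, and of astrocytes, led by GFAP at 634 CPM. The microglial list summed to 1.18 to 2.27 CPM over all libraries, and SOX10, a defining gene of oligodendrocyte and Schwann cell lineages, stayed under 0.1 CPM in each. These marker values were taken on total counts without TMM scaling. IL1B separated the libraries inside both groups: 3 libraries of siNC held 5.23 to 13.0 CPM and the other 3 held between 0.0358 and 0.1, and siZCC had 3 at 5.30 to 16.0 CPM and 3 at 0.0223 to 0.0761. With the IL1B level as a covariate the log2 fold changes of the 7 genes were within 0.01 of those given below.

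Genes were set side by side per kilobase of exons, taken as the union over all annotated transcripts, from 2919 bases for NTF3 to 26750 for NTRK3. A single mRNA can be shorter, so the order also depends on this length, which the ranges over libraries do not cover. On this measure NTRK2 was the most abundant of the 7 in siNC, at 62.3 ± 5.28 CPM per kilobase (SD, n = 6). That is position 424 of 23413 genes with a known length. SORT1 followed at 46.2 ± 2.98 and position 672, and the ranges of both genes over the 6 control libraries did not overlap. SORCS2 stood at 8.86 ± 0.681, NTRK3 at 2.07 ± 0.0978, BDNF at 1.56 ± 0.123, NGFR at 1.55 ± 0.0978 and NTF3 at 0.225 ± 0.0787 CPM per kilobase. BDNF and NGFR could not be ordered, since their ranges overlapped (1.39 to 1.70 and 1.40 to 1.66), while each other neighbouring pair in this order had separate ranges in siNC.

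**Figure D1:**
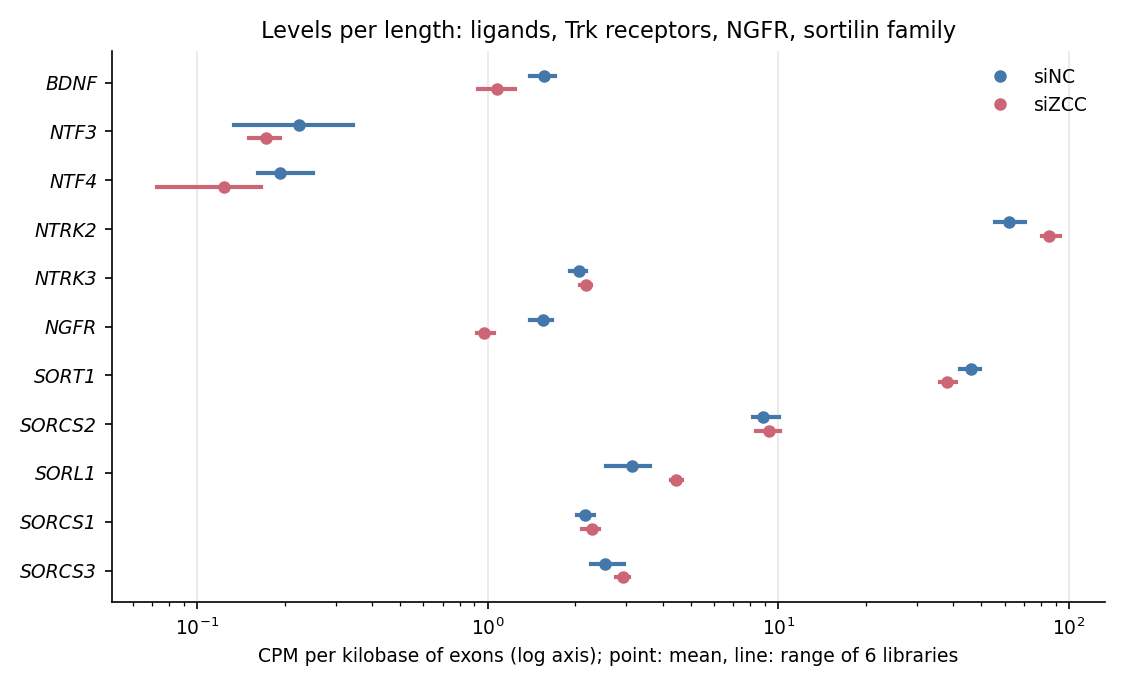
Level of each ligand and receptor in CPM per kilobase of exons on a log axis, with the mean (point) and the range (line) of the 6 siNC and 6 siZCC libraries. NTRK2 and SORT1 lie above 35 CPM per kilobase in every library, and NTF4 and NTF3 lie below 0.4.

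Among the receptors of mature neurotrophins, NTRK2, NTRK3 and NGFR, most of the level fell to 1 gene. SORT1 and SORCS2 were not part of this sum, and SORT1 stood at 46.2 CPM per kilobase in siNC beside 62.3 for NTRK2. NTRK2 made up 94.0% to 95.2% of the summed level per kilobase of NTRK2, NTRK3 and NGFR in siNC and 96.1% to 96.8% in siZCC. Among the ligands, BDNF made up 74.5% to 81.7% of the summed BDNF, NTF3 and NTF4 level in siNC and 75.8% to 81.1% in siZCC, ranges that overlap.

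BDNF, the ligand of TrkB, is on the minus strand of chromosome 11 (27654893 to 27722058) with 11 exon blocks in GENCODE v29 (GRCh38). Its level in siNC ran from 10.8 CPM over a median of 12.4 to 13.2 CPM, on 1142 to 1531 counts, and in siZCC from 7.14 over 8.22 to 9.62 CPM, on 535 to 973 counts. Every siZCC library was below every siNC library. Means were 12.1 ± 0.949 CPM for siNC against 8.35 ± 0.953 CPM for siZCC (SD, 6 libraries each), a log2 fold change of -0.53 (SE 0.0711).

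BDNF shares 701 bases of its exons with BDNF-AS, an antisense transcript, or 9.06% of its own exon bases and 18.8% of those of BDNF-AS. The library kit marks strand, but the strand setting of the counting is not given in the sources used here, so reads from the shared bases cannot be assigned. BDNF-AS, on the plus strand of chromosome 11 (27506838 to 27698174) and tested as a gene outside the chosen set, rose from 9.94 ± 0.389 to 11.5 ± 0.560 CPM, a log2 fold change of 0.22 (SE 0.0442; edgeR quasi-likelihood F test, Benjamini-Hochberg adjusted p 0.00215). The ratio of BDNF to BDNF-AS counts ran from 1.07 to 1.39 in siNC and from 0.621 to 0.917 in siZCC. These are raw counts of genes with unlike exon lengths, 7740 bases for BDNF and 3726 for BDNF-AS. Per kilobase of exons BDNF-AS was above BDNF in every library of both groups. In siNC, BDNF-AS stood at 2.54 to 2.79 CPM per kilobase and BDNF at 1.39 to 1.70. In siZCC the values were 2.82 to 3.26 and 0.923 to 1.24. LIN7C, a scaffold protein gene on the far side of BDNF-AS, fell by 0.14 on the log2 scale (SE 0.0372; same test, adjusted p 0.0115). BDNF-AS and LIN7C were looked up for their place beside BDNF, a gene chosen with this contrast known. Their p-values describe these libraries and are no independent support.

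NTF3, which encodes NT-3, is on the plus strand of chromosome 12 (5432112 to 5521536) and was the least abundant of the 7. It had 47 to 95 counts per library in siNC and 33 to 59 in siZCC. The siNC values ran from 0.392 over 0.628 to 1.01 CPM and the siZCC values from 0.441 over 0.519 to 0.561 CPM. The groups overlapped, with the siNC libraries on both sides of the siZCC range. The coefficient of variation was 35.0% in siNC and 8.85% in siZCC. The log2 fold change was -0.36 (SE 0.193). Without siNC replicate 4, the library with the highest value, it was -0.21. Without siNC replicate 5, the library with the lowest value, it was -0.47.

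NTRK2, the gene of TrkB, is on the plus strand of chromosome 9 (84668551 to 85027070). It rested on 112299 to 178655 counts per library. Its level ran from 1134 over 1245 to 1433 CPM in siNC and from 1640 over 1696 to 1891 CPM in siZCC, with no overlap of the groups. The means were 1269 ± 107 and 1732 ± 89.0 CPM (SD, n = 6 each) and the log2 fold change was 0.45 (SE 0.0487). This was the only 1 of the 7 genes whose siZCC values all lay above the siNC values.

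NTRK3, the gene of TrkC, is on the minus strand of chromosome 15 (87859751 to 88256768) and differed little. The siNC libraries held 51.5 to 58.2 CPM (median 55.0) and the siZCC libraries 55.6 to 60.4 CPM (median 58.7), so the ranges overlapped. Its log2 fold change was 0.08 (SE 0.0348). NTRK3-AS1, an antisense neighbour, had at most 2 counts in any library.

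NGFR, the gene of p75NTR, is on the plus strand of chromosome 17 (49495293 to 49515017). It had the largest fold difference of the 7. In siNC it ran from 5.80 over 6.51 to 6.88 CPM (583 to 815 counts) and in siZCC from 3.81 over 3.91 to 4.38 CPM (292 to 413 counts), with a gap between the groups. The log2 fold change was -0.68 (SE 0.0589). Annotated opposite-strand transcripts that share exon bases with NGFR had at most 5 counts per library.

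SORT1, the gene of sortilin, a sorting receptor that also carries cargo to lysosomes, is on the minus strand of chromosome 1 (109309568 to 109397951). Its siNC values ran from 387 over 430.4 to 454 CPM and its siZCC values from 329 over 347 to 374 CPM, which do not overlap, although the gap between 374 and 387 CPM is narrow. The log2 fold change was -0.28 (SE 0.0437). SORCS2, on the plus strand of chromosome 4 (7192538 to 7742836), ran from 51.6 over 54.3 to 63.3 CPM in siNC and from 52.9 over 59.7 to 63.8 CPM in siZCC. These ranges overlapped almost in full, and the log2 fold change was 0.07 (SE 0.0497).

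**Figure D2:**
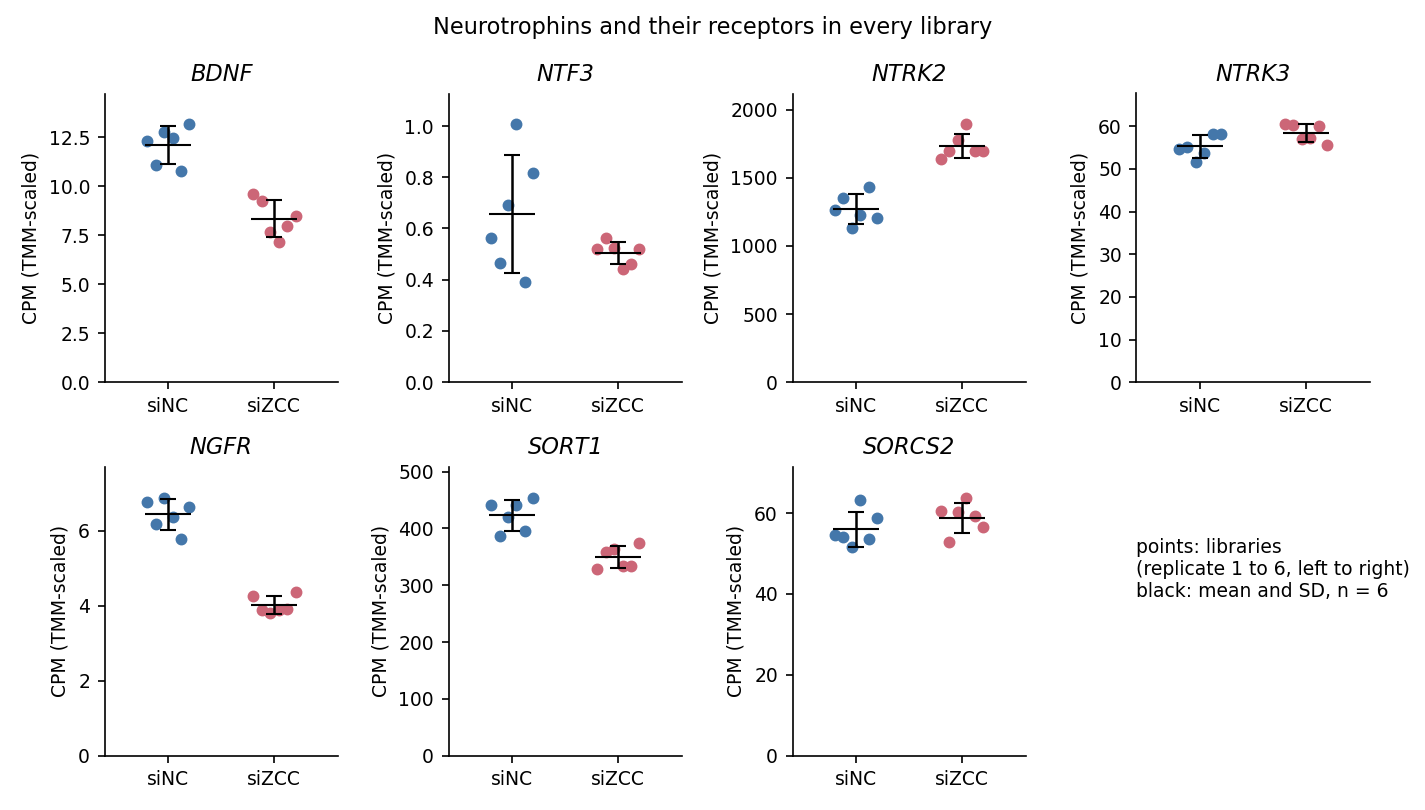
CPM of each of the 7 genes in every library (points, replicates 1 to 6 from left to right) with the mean and SD of each group of 6; each panel has its own axis starting at 0. NTRK2 is higher, and BDNF, NGFR and SORT1 are lower, in every siZCC library than in any siNC library, while NTF3, NTRK3 and SORCS2 overlap.

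Counted together, 4 of the 7 genes had groups that did not overlap, where 9.74% of the 24671 genes kept did. At an adjusted p under 0.05, 1 of the 7 was higher and 3 were lower in siZCC, where 22.2% of all genes kept were called, 11.4% higher and 10.8% lower. Since the genes were chosen on this contrast, nothing is read from these counts. The ratio of NTRK2 to BDNF level per kilobase was 33.8 to 50.5 in siNC and 64.8 to 100.6 in siZCC. That of NTRK2 to NGFR was 33.6 to 50.4 and 78.2 to 98.8, and that of SORT1 to NGFR 27.6 to 31.4 and 34.9 to 43.3. RNA from whole cultures does not separate fewer cells of a type from less RNA per cell.

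Marker lists of cell types are given beside these genes, by their calls, where 22.2% of all genes were called, and by their summed levels. The sums were taken on total counts without TMM scaling, unlike the CPM of single genes above. The TMM factors ran from 1.0003 to 1.016 in siNC and from 0.984 to 0.998 in siZCC. All 7 proliferation markers were called lower, and their summed level ran from 583 to 646 CPM in siNC and from 431 to 509 CPM in siZCC. The neuron list had 1 gene higher and 5 lower of 14 (3426 to 3823 against 3109 to 3509 CPM). Astrocyte markers had 2 higher and 1 lower of 7 (1627 to 1879 against 1666 to 1990 CPM), and progenitor markers 3 higher and 0 lower of 7 (5281 to 5656 against 5379 to 5825 CPM). The mesenchymal list had 1 higher and 4 lower of 7 (363 to 647 against 285 to 456 CPM), and endothelial markers 0 higher and 2 lower of 4 kept (12.3 to 17.7 against 8.45 to 10.5 CPM). The sums of the 2 groups were separate for the proliferation and endothelial lists and overlapped for the others. The part of these cell types in the differences of BDNF, NTRK2, NGFR and SORT1 was not tested.

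The deviations of single libraries from their own group's mean do not use the contrast by which the genes were chosen, so pairs of the 7 genes were compared on them. Of 21 pairs, 3 passed a permutation test (100000 shuffles within groups, two-sided) with Benjamini-Hochberg adjustment over the 21. How large a share of pairs among all genes would pass was not tested, so these 3 have no background to be set against. BDNF and NTRK2 moved in opposite directions within groups, with Pearson's r -0.82 over 12 libraries (permutation p 0.00017, adjusted p 0.00357) and Spearman's rho on ranks within groups -0.89 (permutation p 0.00124). Without the 2 libraries farthest from the median of BDNF, r was -0.69. The relation was present in each group, with r -0.92 in siNC (exact permutation p 0.0111, n = 6) and -0.87 in siZCC (exact permutation p 0.0153, n = 6). In siNC, replicate 5 had the highest NTRK2 and the lowest BDNF, and in siZCC replicate 4 did.

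NGFR also ran against NTRK2 within groups, with r -0.77 (permutation p 0.00474, adjusted p 0.0380) and rho -0.86 (permutation p 0.00216) over 12 libraries, and r -0.64 without the 2 libraries farthest from the median of NTRK2. Here the groups differed in size: r was -0.90 in siNC (exact permutation p 0.0111, n = 6) and -0.57 in siZCC (exact permutation p 0.215, n = 6), and the difference between them was not tested. BDNF and NTF3, the 2 ligands, moved together, with r 0.62 (permutation p 0.00543, adjusted p 0.0380) and rho 0.69 (permutation p 0.0286, 0.150 when adjusted) over 12 libraries. By group, r was 0.85 in siNC (exact permutation p 0.0403, n = 6) and 0.74 in siZCC (exact permutation p 0.104, n = 6). The r over 12 libraries fell to 0.48 without the 2 libraries farthest from the median of BDNF, and NTF3 rests on few counts.

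**Figure D3:**
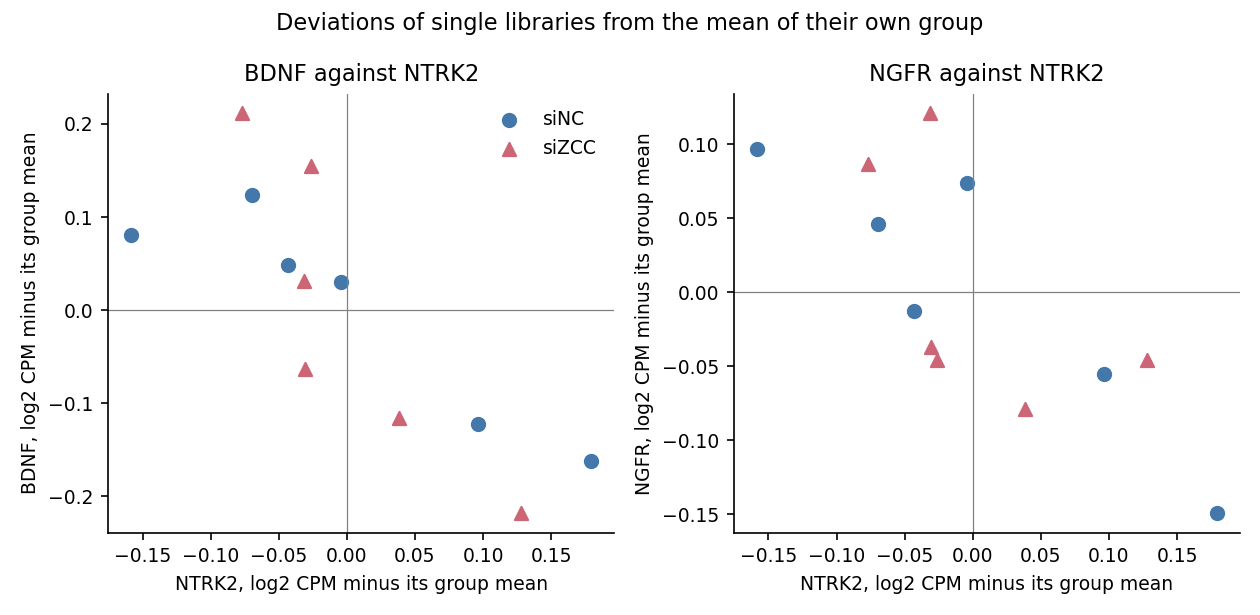
Log2 CPM of BDNF (left) and NGFR (right) against NTRK2, each as the deviation of a library from the mean of its own group; circles are siNC and triangles siZCC libraries. Libraries with more NTRK2 than their group's mean hold less BDNF, with Pearson's r -0.82 over the 12 libraries, and less NGFR, with r -0.77.

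The same deviations were set against 5 properties of each library (total counts, mitochondrial share, IL1B level, and the slopes of all genes' levels on GC content and on exon length), 35 relations in all. Only SORCS2 against the library total passed, with r -0.88 over 12 libraries (permutation p 0.00105, adjusted p 0.0367), rho -0.80 (permutation p 0.00600), and r -0.71 without the 2 libraries with the most extreme totals. SORCS2 was thus higher in the libraries of its group with fewer counts, and the siZCC libraries had fewer counts than the siNC libraries. The part of depth in its small difference between the groups was not tested. NTRK2 and BDNF had r of -0.02 and 0.22 with the total and of 0.51 and -0.20 with the slope on exon length (smallest permutation adjusted p among the other 34 relations, 0.695). NGFR had r -0.02 with the total and -0.50 with the slope on exon length, opposite in sign to NTRK2. Without the 2 libraries with the most extreme slopes, that r of NGFR was -0.70. The part of this slope in the relation of NGFR to NTRK2 was not tested.

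The genes whose deviations within groups were most like each of the 6 members above 1 CPM were taken from 12624 other genes of at least 5 CPM, by Pearson's r over the 12 libraries, as a description. For BDNF these were PEX3 (0.93), ETV5 (0.90) and FAM43A (0.88), and for NTRK2 they were BTBD3 (0.95), AC138393.1 (0.93) and TBC1D5 (0.93). NTRK3 was nearest to AMER2 (0.95), ANK3 (0.95) and CACNA2D1 (0.93), and NGFR to SMIM3 (0.93), GRPEL1 (0.93) and RTCA (0.91). SORT1 was nearest to CRISPLD1 (0.97), TRPM8 (0.97) and STON1 (0.96), and SORCS2 to NYNRIN (0.92), DUSP16 (0.91) and CCDC85C (0.91). With 12 libraries and so many genes, values of this size are the top of a long list.

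The next comparison asked how the nearest relatives outside the chosen set differed between siZCC and siNC. These relatives and the lists of genes below were also chosen with earlier results of these data known. Their p-values therefore describe these libraries and are no independent support. SORL1, the sortilin-family receptor SorLA that sorts the amyloid precursor protein and is a genetic risk gene for Alzheimer's disease, rose. Its siNC values ran from 49.7 over 60.2 to 70.6 CPM and its siZCC values from 83.4 over 86.5 to 91.0 CPM, so that no library overlapped. This is a log2 fold change of 0.51 (SE 0.0616; edgeR quasi-likelihood F test, Benjamini-Hochberg adjusted p 2.58e-05). SORCS3, a neuronal receptor of the same family, rose by 0.20 (SE 0.0584; adjusted p 0.0188 in the same edgeR test), with overlapping groups at 13.0 to 17.0 and 16.0 to 17.7 CPM. SORCS1, at 0.08 (SE 0.0421; adjusted p 0.187 in that edgeR test), was not called.

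NTF4, the gene of NT-4 and the other ligand of TrkB, fell by 0.63 on the log2 scale (SE 0.20; edgeR adjusted p 0.0304), but it had only 28 to 41 counts per library in siNC and 8 to 23 in siZCC. That call was lost when any 1 of siNC replicates 1 and 4 or siZCC replicates 1, 2 and 4 was left out, and with no filter on low counts, at adjusted p up to 0.0758 in the same test over all alternatives. Of the 4 relatives kept, 2 were therefore higher and 1 lower, and their median log2 fold change was 0.14, against -0.0016 over all 24671 genes.

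**Figure D4:**
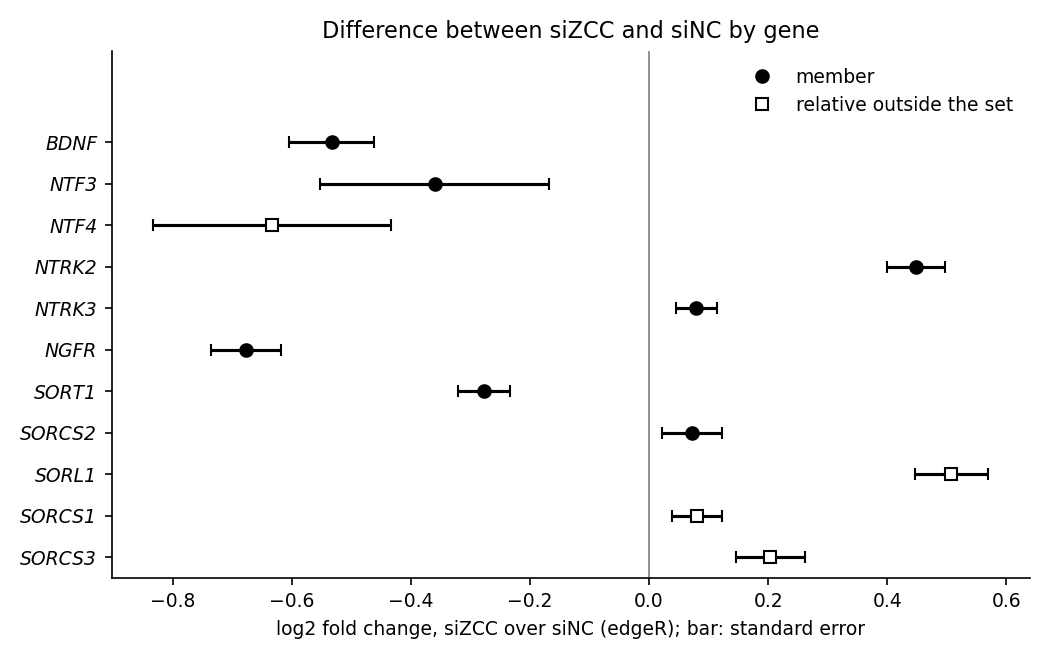
Log2 fold change of siZCC over siNC with its standard error for the 7 chosen genes (filled circles) and 4 relatives outside the set (open squares). BDNF, NGFR, SORT1 and NTF4 lie to the left of 0, NTRK2 and SORL1 near 0.5 to its right, and NTRK3, SORCS2 and SORCS1 within 0.1 of it.

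Of 16 genes kept that cut, sort or release neurotrophin precursors, 3 were higher and 3 lower (37.5% called, beside 22.2% of all genes; the difference in share was not tested), with a median log2 fold change of -0.03. HAP1, the huntingtin-associated protein that takes part in vesicle transport of the BDNF precursor, rose from 34.3 ± 3.03 to 55.7 ± 4.0 CPM (SD, n = 6 each), a log2 fold change of 0.70 (SE 0.0569; edgeR adjusted p 6.55e-07). PCSK6, a proprotein convertase, rose by 0.57 (SE 0.0988) from about 1.0 CPM, and CADPS2, a factor for release of dense-core vesicles, by 0.12 (SE 0.0356). Among the falls were MMP2, a gelatinase (-0.57, SE 0.0883), SERPINI1, the neuroserpin that inhibits tissue plasminogen activator (-0.21, SE 0.0531), and PCSK1, a convertase of the regulated secretory pathway (-0.18, SE 0.0618). The CADPS2 call was lost without siZCC replicate 4 and with no filter on low counts, and the PCSK1 call without any 1 of siNC replicates 2, 4, 5 and 6 or siZCC replicates 1, 3, 4 and 6.

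Of all genes kept, 22.2% were called, 11.4% higher and 10.8% lower, and no difference in share from these was tested. Among 24 partners and proteases of p75NTR kept, 7 were higher and 0 lower (29.2% called), with a median log2 fold change of 0.03. TNFRSF19, a receptor of the same superfamily that can join the Nogo receptor complex, rose by 0.35 (SE 0.0368; edgeR adjusted p 7.64e-06), from 32.4 ± 1.6 to 41.1 ± 1.61 CPM. APH1A, a subunit of gamma-secretase, which cuts p75NTR in the membrane, rose by 0.19 (SE 0.0314), and TRAF6, an adaptor ubiquitin ligase that binds p75NTR, by 0.23 (SE 0.0429). For adaptors and kinases of Trk signalling, 9 of 51 were higher and 3 lower, with a median of 0.01. The share called, 23.5%, is close to the 22.2% of all genes.

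PIK3R3, a regulatory subunit of PI3 kinase, fell from 158 ± 4.52 to 119.5 ± 8.04 CPM (log2 fold change -0.40, SE 0.0390; edgeR adjusted p 3.18e-06). CRK, an adaptor that links Trk to Rap1, fell by 0.19 (SE 0.0272), and NEDD4, an E3 ubiquitin ligase, by 0.31 (SE 0.0855). PIK3CB, a catalytic subunit of PI3 kinase (0.25, SE 0.0377), GAB2, a docking adaptor (0.24, SE 0.0380), and SHC2, an adaptor that binds phosphorylated Trk receptors (0.22, SE 0.0408), rose.

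Genes that respond to neurotrophins, among them feedback regulators of ERK signalling, were called for 14 of 30 kept, 3 higher and 11 lower, or 46.7% where 22.2% of all genes were; the difference in share was not tested. Their median log2 fold change was -0.07. The falls named by rank were DUSP4 (-0.28, SE 0.0442) and DUSP6 (-0.27, SE 0.0502), phosphatases that act on ERK, and KLF10, a transcription factor (-0.22, SE 0.0404). DUSP6 stood at 33.0 to 37.7 CPM in siNC and 25.0 to 31.3 CPM in siZCC. NPY, a neuropeptide, rose from 4.30 ± 0.528 to 6.99 ± 0.633 CPM (0.70, SE 0.0810; edgeR adjusted p 1.71e-05), NR4A1, an orphan nuclear receptor, by 0.22 (SE 0.0348) and SPRED1, an inhibitor of Ras signalling, by 0.17 (SE 0.0536). The SPRED1 call was lost without any 1 of siNC replicates 3 and 4 or siZCC replicates 2, 3 and 6.

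Other neurotrophic factor families had 1 gene higher and 2 lower of 19 kept (15.8% called, below the 22.2% of all genes), with a median log2 fold change of -0.07; 6 were called without siNC replicate 5 and 5 by the DESeq2 Wald test. CNTFR, a receptor for ciliary neurotrophic factor, rose from 142 ± 12.6 to 186 ± 12.3 CPM (0.40, SE 0.0543; edgeR adjusted p 8.23e-05). CLCF1, a cytokine that also signals through this receptor, fell by 0.32 (SE 0.0842), and GFRA2, a co-receptor for neurturin, by 0.31 (SE 0.0642). Across all 6 lists the adjusted p of the genes named as rising or falling was at most 0.0400 by the edgeR quasi-likelihood F test, Benjamini-Hochberg adjusted.

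**Figure D5:**
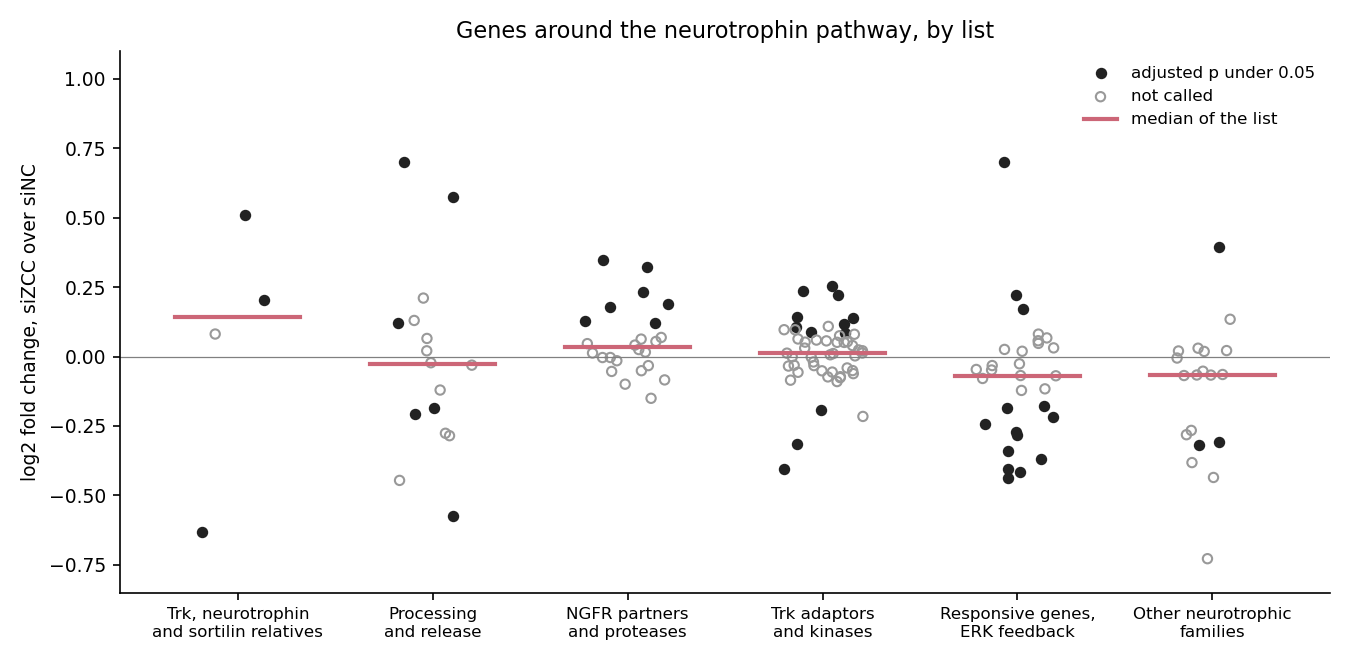
Log2 fold change of siZCC over siNC for each gene kept in 6 lists around the neurotrophin pathway; filled points passed an adjusted p of 0.05, open points did not, and bars are list medians. List medians lie between -0.07 and 0.14, and 11 of the 14 called responsive genes lie below 0.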

How the data were processed

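Total RNA of 12 libraries was sequenced after Qiazol lysis with the NEBNext Ultra II Directional kit, per the labels' protocols. The submitters' processing notes name bcl2fastq 2.17, STAR 2.7.6a, featureCounts 2.0.1 and the build GRCh38, with no role or order; annotation, strand setting and treatment of overlapping genes are not given in the sources used here. The authors deposited raw counts per gene symbol. Groups and replicate numbers come from the titles.

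Counts were tested with edgeR 4.0.16 in R 4.3.3: filterByExpr (24671 genes kept), TMM scaling, the quasi-likelihood test over all 12 libraries without covariates, Benjamini-Hochberg adjustment over all genes kept, threshold 0.05. The standard error is the log2 fold change divided by the square root of F. CPM is per 1000000 counts, with TMM scaling except in the sums and levels of markers. Log2 CPM used a prior count of 2. The fit was tested on simulated data. Libraries held 76115083 to 120023356 counts, and the biological coefficient of variation was 6.55%.

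Exon-union lengths and positions are from GENCODE v29 (GRCh38), promoter windows from RefSeq. Correlations used Python 3.11.15 with numpy 2.4.6.

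The 7 genes and the lists were chosen with earlier results of these data known; a few listed genes are not reported here and were left out of the lists. Named were all 7 genes, their relatives and antisense or neighbouring transcripts; per other list, the 3 called genes of at least 1 CPM with the smallest p among those higher, and likewise among those lower; the 3 genes most alike each member; and the highest gene of marker lists. The sensory neuron list had 1 gene higher and 1 lower of 5 kept, the oligodendrocyte list 0 and 1 of 5, the neural crest list 1 and 0 of 6 and the microglial list 0 and 0 of 2.

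Alternatives were DESeq2 size factors, upper quartile scaling, other filters, DESeq2 1.42.0, limma voom (limma 3.58.1), a replicate block, IL1B as a covariate, leaving out each library and, added after seeing the data, a correction for GC content and exon length (94.9% of genes kept had both).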

Additional observations from a re-analysis of the deposited data

Results flagged for a closer look

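For 40 quantities in both groups (80 sets of 6 values), the gap of the most extreme library to its neighbour was set against the range; about 4 sets are due by chance, and 2 stood out. The total of siNC replicate 4, 90755953 counts, lay below 109973707 to 120023356 in the other siNC libraries. KLF10 was at 27.9 CPM in siNC replicate 3 against 29.8 to 30.3 in the others. None of the 7 neurotrophin and receptor genes had such a library.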

How the results depend on the processing

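Under the 9 alternatives other than leaving out libraries, the log2 fold changes of the 7 genes moved by less than 1 SD between replicates and kept their sign: BDNF -0.54 to -0.52, NGFR -0.71 to -0.67, NTRK2 0.43 to 0.45, SORT1 -0.29 to -0.28, NTF3 -0.37 to -0.27, NTRK3 0.05 to 0.08 and SORCS2 0.03 to 0.07. Leaving out each library gave BDNF -0.58 to -0.49, NGFR -0.71 to -0.66, NTRK2 0.42 to 0.49 and SORT1 -0.30 to -0.26. The count over the table was 4785 to 6246 against 5481, and 4484 to 5626 without single libraries. List counts stayed within 1.5 times of the count given, except other neurotrophic factor families (3), with 5 by the DESeq2 Wald test and 3 to 6 without single libraries; the cause was not tested. The correlation of NTRK2 and BDNF within groups ran from -0.84 to -0.81 under other scalings, the GC and length correction and with IL1B regressed out, and from -0.87 to -0.77 without single libraries. The pairs of NGFR with NTRK2 and of NTF3 with BDNF were not repeated this way. Of 30 genes named as called outside the 7, 26 kept their call in every fit in which they were tested and 0 changed sign; NTF4, CADPS2, PCSK1 and SPRED1 did not keep it in all.

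Libraries that share a replicate number showed no likeness in their deviations, with correlations from -0.08 to 0.02, and were not treated as paired. These correlations do not show whether the libraries were made in pairs. With the replicate block the genes called over the table numbered 4902, and NTF4 lost its call. NTF3 and NTF4 rest on fewer than 100 counts per library.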
